A study of Mus musculus with 14 samples.

Results

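The 10 genes described here encode subunits of the transcription factor NF-kB and proteins that regulate it. These are the IkB proteins Nfkbia, Nfkbib, Nfkbie, Nfkbiz and Bcl3, the ubiquitin-editing inhibitor Tnfaip3, and the subunits Nfkb1, Nfkb2, Rel and Relb. They were chosen by symbol and function from the 46095 symbols of the count table, but with the ischemia and genotype comparisons of these mice already known. The tests on them therefore describe the members and give no independent support. All 10 were among the 17693 genes that passed the filter on low counts.

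Bulk RNA sequencing of the superior mesenteric artery (SMA), the vessel that supplies the gut, was carried out in 14 C57BL/6 mice aged 8 weeks. Under normal conditions there were 3 Drp1 +/+ mice (WT) and 4 mice that the labels call Drp1 flox/+ (KO), and after ischemia there were again 3 WT and 4 KO mice. Ischemia was produced under anaesthesia by bleeding through a catheter in the femoral artery. The study's methods describe no sham operation for the normal mice, so anaesthesia, surgery and blood loss cannot be told apart. The labels of the ischemic libraries give 2 h, whereas the study's text names a longer period for these groups. Drp1, encoded by Dnm1l, is the GTPase of mitochondrial fission. KO is the study's name for a heterozygous line, which its methods describe as a frameshift made in 1 exon by CRISPR/Cas9, and neither a Cre driver nor deletion of a floxed allele is given. The libraries held 25612646 to 40255851 counts (median 33506452). Levels are given as CPM, the counts of a gene relative to the library's total after scaling by the trimmed mean of M values (TMM).

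NF-kB is a family of dimers. In resting cells IkB proteins mask the dimers in the cytoplasm, and after signals from cytokine or Toll-like receptors the IkB kinase complex marks the IkB for destruction, so that the dimer enters the nucleus. Several of its best known target genes encode its own inhibitors, which end the response, and in the vessel wall other targets are the endothelial adhesion molecules and chemokines that draw in leukocytes.

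Dnm1l was read first as the check of the genotype. Under normal conditions it was at 63.8, 65.7 and 90.9 CPM in WT and at 54.8, 60.8, 57.9 and 62.2 CPM in KO mice. Each KO mouse lay below each WT mouse, but the highest KO and the lowest WT mouse were close. No gene passed the edgeR test of KO against WT under normal conditions (smallest FDR 0.557), so this ordering alone does not establish a lower level. After ischemia it was at 81.0, 63.1 and 80.9 CPM in WT and at 72.6, 69.0, 76.0 and 60.0 CPM in KO mice, and the groups overlapped. These counts cover the whole gene and do not separate the targeted exon. The study itself reports fewer reads over that exon in KO mice, and less Drp1 by western blot and immunofluorescence. The 13 other libraries were run on lane 8 and that of normal WT mouse 3 on lane 1, so that lane cannot be told apart from this mouse. In bulk tissue, fewer cells of a type and less RNA per cell cannot be told apart.

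The cell type markers placed the tissue in the artery wall and its surroundings. The 7 smooth muscle markers summed to 7115 to 25042 CPM in normal WT, 10367 to 24407 CPM in normal KO, 19917 to 36318 CPM in ischemic WT and 18584 to 30031 CPM in ischemic KO mice, and all 7 had a positive log2 fold change over both genotypes (median 0.53). The 7 endothelial markers summed to 784 to 1811, 944 to 1412, 794 to 1332 and 663 to 1176 CPM in the same order, and none had a positive one (median -0.48). No marker of either list was at 0 throughout a group.

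Of 6 neutrophil markers 1, Ly6g, was listed at 0 in all mice, and the sum ran from 0.767 to 5.72 CPM in normal WT, 1.77 to 7.49 CPM in normal KO, 1.19 to 14.2 CPM in ischemic WT and 1.99 to 18.1 CPM in ischemic KO mice, with all 5 tested markers positive (median 1.38). The lowest of these was Csf3r (0.046), and in KO mice alone 3 of the 5 were positive. Ischemic WT mouse 2 and ischemic KO mouse 3 held the highest neutrophil sum of their group, and these mice recur in the member genes. The 6 macrophage markers summed to 141 to 333, 183 to 548, 59.6 to 193 and 111 to 296 CPM in that order of groups, none of them with a positive log2 fold change (median -0.87). Brown adipocyte markers spanned 157 to 6721, 1117 to 6203, 265 to 1376 and 959 to 4813 CPM. No marker of these lists was called. No brown adipocyte marker had a positive log2 fold change either (median -0.92). The same held for the tested markers of white adipocytes (median -1.025), B cells (-1.44) and neurons and Schwann cells (-0.31), with none called. Of 5 mesothelium markers 2 were positive, as was the 1 tested marker of exocrine pancreas. All T cell and red cell markers were negative. Of 6 T cell markers 1 was called, Cd3g (-4.78, FDR 0.0322), and of 5 red cell markers none (median -1.73). Their sums were 1.74 to 6.08, 1.12 to 32.0, 0.243 to 1.80 and 0.178 to 2.51 CPM for T cells and 107 to 251, 346 to 592, 4.62 to 109 and 75.9 to 186 CPM for red cells in the same order of groups. The part of cell makeup in the changes of the members was not tested. Ischemic WT mouse 2 and ischemic KO mouse 3 are called neutrophil-rich below, a label for that sum only. In its group WT mouse 2 also had the lowest smooth muscle sum (19917 CPM). Its endothelial (1332), brown (1376) and white adipocyte (1677), red cell and T cell sums were the highest, but not its macrophage sum (138). KO mouse 3 had its group's lowest smooth muscle (18584) and highest macrophage (296), T cell and B cell sums, but not the highest endothelial sum (920). Fits without these 2 mice also take out the highest ischemic values of most members, so such fits cannot test cell makeup.

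Since several members are textbook targets of the factor they regulate, the DNA before their start sites is shown for those with a match to the kappaB consensus, the binding motif of NF-kB dimers. RefSeq windows on GRCm38.p6 were searched on both strands over the 250 bases before each start, and overlapping matches were joined. Of 10 promoters of the 7 members in the table, 7 held a match, against 1281 of 32851 promoters of all genes (3.90%). Since Nfkb2 has several promoters, the count by gene was 5 of 7, against 1204 of 27025 genes (4.46%). Nfkbib and Bcl3 had none, and Nfkbiz, Nfkb1 and Relb were not in the table. Capitals mark the match, each sequence is written 5′ to 3′ on the gene's own strand, and a match describes letters only.
Nfkbia, chr12:55492657-55492686, minus strand, 29 to 20 bases before the start and upstream of the gene: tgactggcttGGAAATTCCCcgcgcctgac
Tnfaip3, chr10:19015516-19015545, minus strand, 125 to 116 bases before a start site, in an intron of the gene: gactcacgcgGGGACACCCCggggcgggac
Tnfaip3, chr10:19015411-19015432, minus strand, 12 to 3 bases before the same start site, in an intron: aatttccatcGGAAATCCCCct
Rel, chr11:23771042-23771070, minus strand, 92 to 82 bases before the start and upstream of the gene: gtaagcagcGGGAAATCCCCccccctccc
Nfkbie, chr17:45555584-45555613, plus strand, 106 to 97 bases before the start and upstream of the gene: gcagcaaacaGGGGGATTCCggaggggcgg
Nfkb2, chr19:46304689-46304717, plus strand, 39 to 29 bases before a start site, in an annotated exon of the gene: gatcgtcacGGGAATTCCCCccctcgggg
Nfkb2 held 3 further matches, in an exon or intron of the gene. The stretch in Rel and that shown for Nfkb2 were 11 bases long because overlapping matches were joined.

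Ischemia against normal conditions, with both genotypes averaged, asked which members differed in the artery after the whole procedure. Of the 10 members 5 rose (Nfkbia, Nfkbiz, Tnfaip3, Rel and Relb) and none fell. Calls required a Benjamini-Hochberg adjusted p (FDR) below 0.05, taken over all genes from edgeR's quasi-likelihood test, together with a fold change above 1.5. Over all genes 164 of 17693 were called (0.927%), 109 of them higher (0.616%). All 10 members had a positive log2 fold change, with a median of 1.39 against -0.05 for all genes tested. Without ischemic WT mouse 2 the members' median was 0.78. The same 5 members were also those whose ischemic mice all lay above all normal mice, a pattern found in 0.576% of genes.

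**Figure D1:**
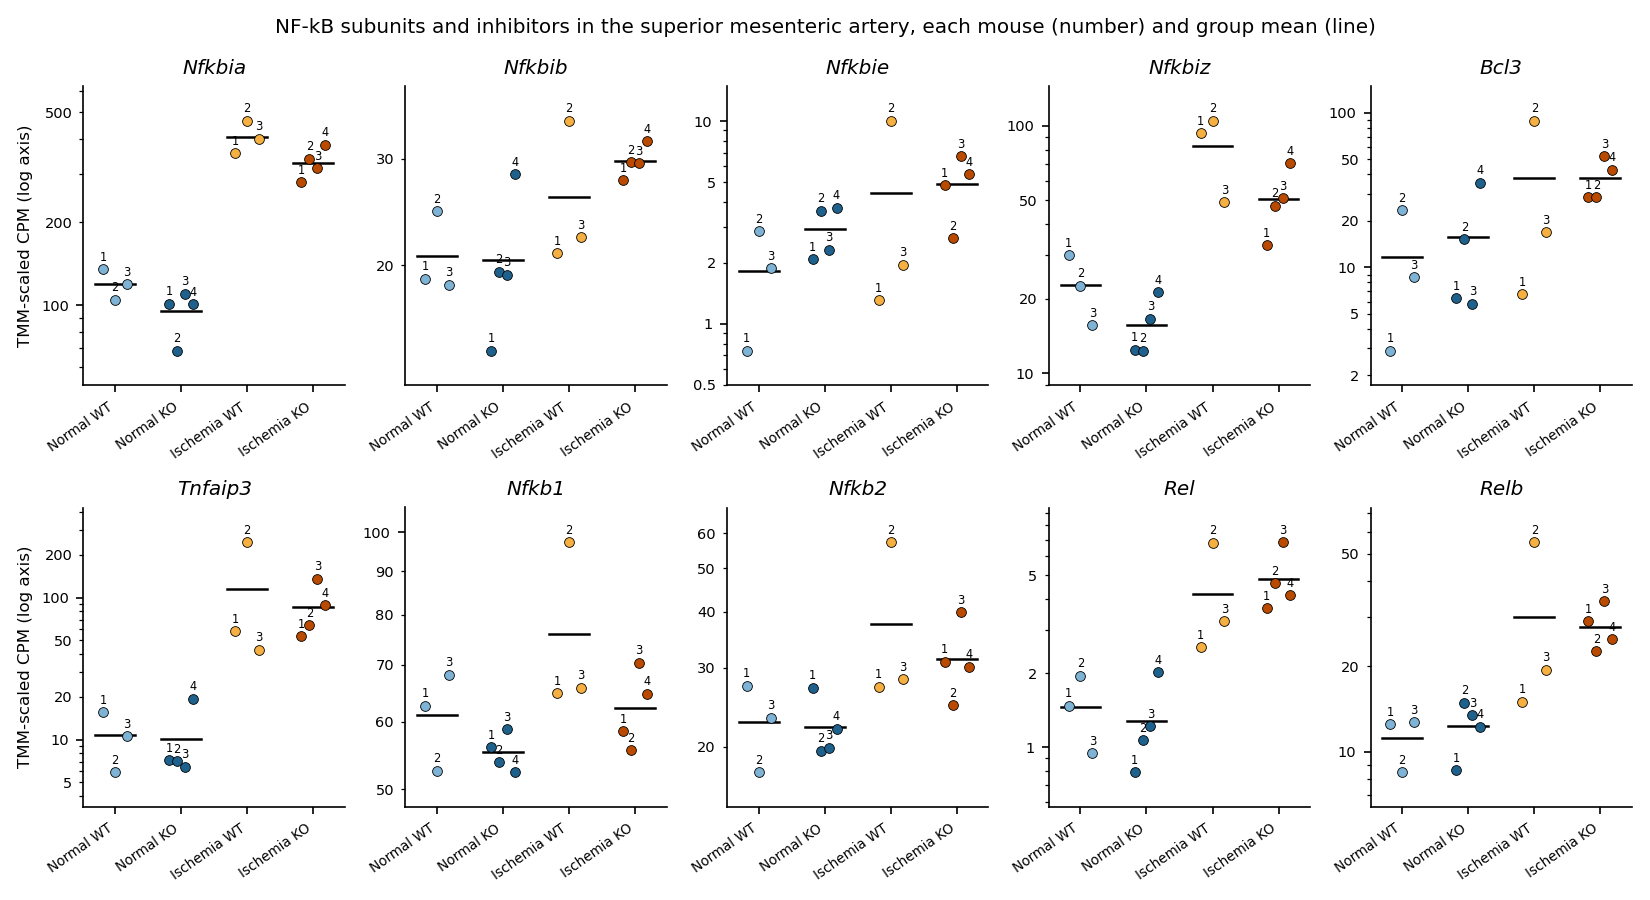
Level of each of the 10 members in each mouse, in TMM-scaled CPM on a log axis, by group (normal WT n = 3, normal KO n = 4, ischemia WT n = 3, ischemia KO n = 4). Each numbered point is a mouse and each line the group mean. In Nfkbia, Nfkbiz, Tnfaip3, Rel and Relb all 7 ischemic mice sit above all 7 normal mice, and mouse 2 of the ischemic WT group is the highest of all 14 in 9 of the 10 genes.

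Nfkbia encodes IkB-alpha, the inhibitor that is destroyed and then made anew in each round of NF-kB activation. Under normal conditions it stood at 135, 105 and 119 CPM in WT and at 101, 68.5, 110 and 101 CPM in KO mice. After ischemia it stood at 356, 467 and 402 CPM in WT and at 280, 340, 314 and 382 CPM in KO mice. Every ischemic mouse lay above the highest normal mouse, by a gap wider than the range of any group. The log2 fold change was 1.78 (SE 0.145, 95% interval 1.47 to 2.09, a 3.43-fold rise, FDR 0.000172), which gave Nfkbia rank 1 of 17693 by p. Its counts, 2439 to 14546 per mouse, were among the better measured of the members, and it was called with any 1 of the 14 mice left out.

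Nfkbib and Nfkbie encode the other cytoplasmic IkB proteins, IkB-beta and IkB-epsilon, and neither passed the test. Nfkbib was at 19.0, 24.6 and 18.6 CPM in normal WT, 14.4, 19.5, 19.3 and 28.3 CPM in normal KO, 20.9, 34.7 and 22.2 CPM in ischemic WT and 27.7, 29.6, 29.5 and 32.1 CPM in ischemic KO mice. Normal KO mouse 4 and normal WT mouse 2 reached into the ischemic range. The log2 fold change of Nfkbib was 0.43 (95% interval 0.078 to 0.79, FDR 0.202). Nfkbib shares 314 exon bases with Ccer2 and 42 with Sirt2 on the opposite strand, and whether the counting used strand is not given. Nfkbie was low, at 0.738 to 3.74 CPM over the normal and 1.31 to 10.1 CPM over the ischemic mice, and its groups overlapped, with a log2 fold change of 1.01 (95% interval 0.023 to 1.99, FDR 0.269). The 10.1 CPM belonged to ischemic WT mouse 2, and without that mouse the value was 0.29 (FDR 0.696).

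Nfkbiz and Bcl3 encode IkB proteins that act in the nucleus, where they bind NF-kB dimers on DNA and can switch target genes on. Nfkbiz was at 30.01, 22.5 and 15.7 CPM in normal WT and 12.4, 12.3, 16.6 and 21.3 CPM in normal KO mice. It was at 93.2, 105 and 49.1 CPM in ischemic WT and 32.8, 47.5, 50.8 and 70.6 CPM in ischemic KO mice. The lowest ischemic mouse, a KO, was only just above the highest normal mouse, a WT, whereas within each genotype the gap was wider. Nfkbiz rose 3.41-fold (log2 1.77, SE 0.235, FDR 0.00525), and was called with any 1 mouse left out.

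Bcl3 had the largest standard error of the members (0.609 on the log2 scale). It ran from 2.89 to 23.4 CPM in normal WT, 5.83 to 35.4 CPM in normal KO, 6.72 to 89.2 CPM in ischemic WT and 28.4 to 52.4 CPM in ischemic KO mice. Its fitted fold of 2.80 (log2 1.48, 95% interval 0.18 to 2.79) did not pass the test (FDR 0.231), and without ischemic WT mouse 2 the log2 fold change was 0.66 (FDR 0.532). Normal KO mouse 4 and normal WT mouse 2 were again the highest of their groups and overlapped the ischemic mice. Normal WT mouse 3 (8.64 CPM) and normal KO mouse 2 (15.3 CPM) also lay above the lowest ischemic mouse. Bcl3 shares 161 exon bases with the antisense transcript Gm16175.

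Tnfaip3 encodes the enzyme that removes activating ubiquitin chains from the receptor complexes upstream of the IkB kinase. It was at 15.6, 5.89 and 10.6 CPM in normal WT and 7.19, 7.07, 6.46 and 19.4 CPM in normal KO mice. After ischemia it was at 58.0, 246 and 42.9 CPM in WT and 53.7, 64.2, 136 and 88.3 CPM in KO mice. The groups did not overlap, and Tnfaip3 had the largest fold change of the 10 members at 9.60-fold (log2 3.26, SE 0.458, 95% interval 2.28 to 4.25, FDR 0.00636). The 246 CPM belonged to ischemic WT mouse 2, and without that mouse the log2 fold change was 2.67 (FDR 0.00987). Without ischemic WT mouse 2 and ischemic KO mouse 3 together, those with over 10 CPM of neutrophil markers, it was 2.51 (FDR 0.0202).

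Among the subunits, Rel and Relb rose and Nfkb1 and Nfkb2 did not pass the test. Rel encodes c-Rel, a subunit with a transactivation domain that is best known from lymphoid cells. It was at 1.48, 1.95 and 0.944 CPM in normal WT, 0.790, 1.07, 1.22 and 2.02 CPM in normal KO, 2.55, 6.80 and 3.26 CPM in ischemic WT and 3.68, 4.64, 6.84 and 4.17 CPM in ischemic KO mice. These levels rest on 25 to 234 counts, the fewest of the called members. Rel rose 3.30-fold (log2 1.72, SE 0.324, FDR 0.0265). The call was lost without normal WT mouse 3, normal KO mouse 2 or 3, ischemic WT mouse 2 or ischemic KO mouse 2 or 3, with FDRs of 0.0510 to 0.0689, and without both neutrophil-rich mice the log2 fold change was 1.35 (FDR 0.116).

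Relb encodes the subunit of the noncanonical branch, which pairs with the processed Nfkb2 product. It was at 12.5, 8.45 and 12.7 CPM in normal WT, 8.60, 14.88, 13.5 and 12.2 CPM in normal KO, 15.02, 55.1 and 19.5 CPM in ischemic WT and 28.9, 22.7, 34.0 and 25.02 CPM in ischemic KO mice. The lowest ischemic mouse, WT mouse 1, was barely above the highest normal mouse, KO mouse 2. Relb rose 2.45-fold (log2 1.29, SE 0.267, FDR 0.0391), and the call was kept only without normal WT mouse 1, ischemic WT mouse 1 or ischemic WT mouse 3. Without any 1 of the other 11 mice the FDR lay between 0.0514 and 0.0913, and without both neutrophil-rich mice the log2 fold change was 0.84 (FDR 0.0891).

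Nfkb1 and Nfkb2 encode the long precursors from which the subunits without a transactivation domain are cut. Nfkb1 had the smallest standard error (0.121), at 52.4 to 68.1 CPM over the normal and 55.6 to 97.4 CPM over the ischemic mice (log2 fold change 0.24, 95% interval -0.017 to 0.50, FDR 0.306). Nfkb2 was at 17.5 to 27.4 CPM over the normal and 24.7 to 57.3 CPM over the ischemic mice (log2 0.62, 95% interval 0.21 to 1.03, FDR 0.135). In both genes the top value was again that of ischemic WT mouse 2. Nfkb2 shares 531 exon bases with a transcript from the opposite strand and 299 with Psd.

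Rela encodes the main transactivating subunit and is no member. It was at 134, 86.0 and 102 CPM in normal WT, 112, 81.1, 97.2 and 79.3 CPM in normal KO, 157, 176 and 138 CPM in ischemic WT and 143, 135, 138 and 145 CPM in ischemic KO mice. The ischemic mice lay above the normal mice without overlap, but the lowest of them, KO mouse 2, was barely above normal WT mouse 1. The log2 fold change of 0.58 (SE 0.130, a 1.49-fold difference, FDR 0.0564) fell just outside both limits.

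The same few mice led or trailed their groups in most members. Ischemic WT mouse 2 was the highest of its group in all 10 members and the highest of all 14 mice in 9, with ischemic KO mouse 3 above it in Rel. Ischemic KO mouse 3 was the highest of its group in 7 members and mouse 4 in the other 3. Ischemic WT mouse 1 was the lowest of its group in 8, and normal KO mouse 4 the highest of its group in 6. With 3 or 4 mice a group and members of a single pathway, these counts describe the mice and carry no test.

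Within each genotype Tnfaip3 again had the largest fold change of the 10 members. In WT mice Nfkbia alone was called among the members (log2 1.77, SE 0.218, FDR 0.0256), where 0.0113% of genes were called and all of those were higher (0.0113%). In KO mice Nfkbia (log2 1.79, SE 0.189, FDR 0.00429), Nfkbiz (1.69, FDR 0.0414) and Tnfaip3 (3.09, FDR 0.0476) were called, where 0.294% of genes were called and 0.187% were called higher. Nfkbia had rank 1 by p in both.

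Nfkbiz and Tnfaip3 had log2 fold changes of 1.86 and 3.43 in WT mice (FDR 0.283 for each). Rel and Relb had 1.52 and 1.41 in WT (FDR 0.513 for each) and 1.92 and 1.17 in KO mice (FDR 0.0851 and 0.179). All 10 members were positive in each genotype, with medians of 1.47 in WT and 1.22 in KO mice against -0.0073 and -0.049 for all genes. Without ischemic WT mouse 2 the WT median was 0.43 and Nfkbie was at -0.18, so that 9 of 10 members were positive. The 5 members called over both genotypes were also the ones without overlap in WT mice, where 6.63% of genes were higher without overlap, and in KO mice, where 5.49% were.

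Single mice decided part of these calls. The WT call of Nfkbia was lost without normal WT mouse 1, 2 or 3, normal KO mouse 3, ischemic WT mouse 2 or 3 or ischemic KO mouse 2, with FDRs of 0.0507 to 0.220. The KO call of Nfkbiz was lost without normal KO mouse 1, 2 or 3 or ischemic KO mouse 2, 3 or 4 (FDR 0.0874 to 0.184), and that of Tnfaip3 without normal WT mouse 3, normal KO mouse 1, 2 or 3 or any ischemic KO mouse (FDR 0.0635 to 0.224). The KO call of Nfkbia was kept with any 1 mouse left out. Without ischemic WT mouse 2 the WT log2 fold change was 2.21 for Tnfaip3, 0.60 for Relb and 0.010 for Bcl3. Bcl3, which was not called, stood at 2.70 in WT without normal WT mouse 2 and at 2.06 in KO mice without normal KO mouse 4, against 1.69 and 1.28 with all mice.

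**Figure D2:**
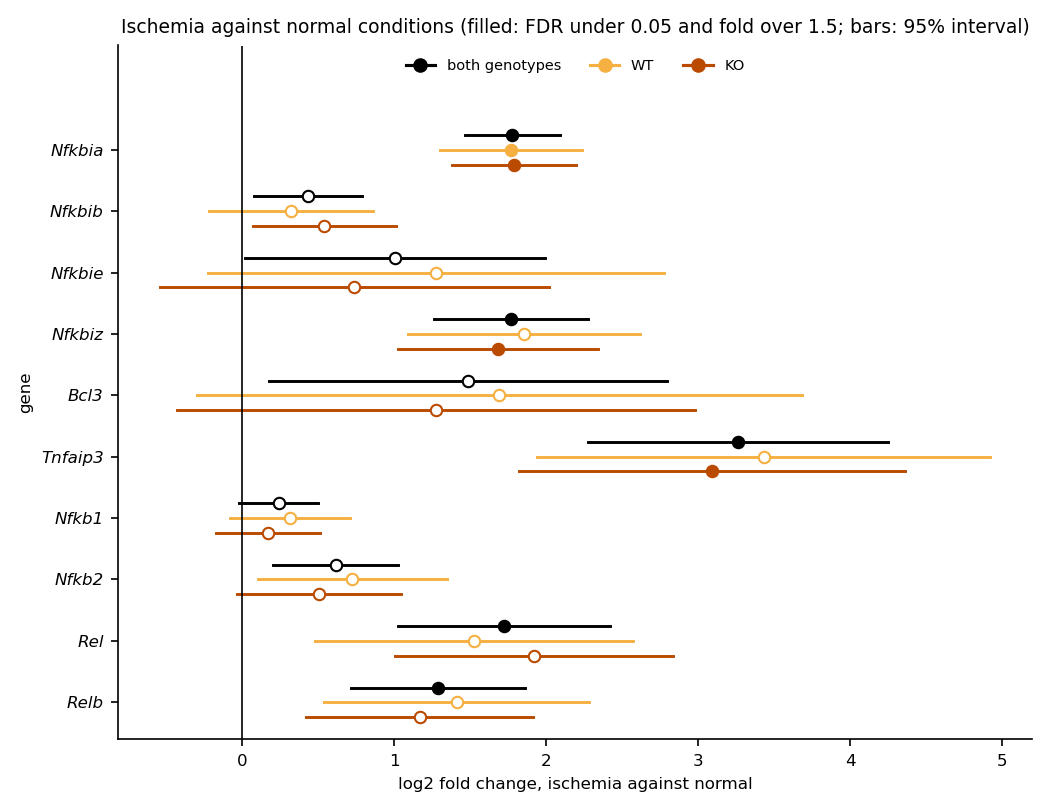
Log2 fold change of each member, ischemia against normal, averaged over both genotypes and in WT and KO mice. Points are edgeR estimates, bars 95% intervals, and filled points are called genes. All 30 estimates lie above 0, and the intervals of Bcl3 and Nfkbie are among the widest.

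The comparison of genotypes asked whether heterozygous Drp1 altered the members. No member was called for KO against WT under normal conditions, nor was any gene (0%), with 929 of 17693 genes (5.25%) at an unadjusted p under 0.05 and 41 genes called by DESeq2. The log2 difference was -0.33 for Nfkbia (95% interval -0.76 to 0.094), -0.54 for Nfkbiz (-1.23 to 0.15) and -0.096 for Tnfaip3 (-1.37 to 1.18). The differences of the 10 members had a median of -0.067, against -0.021 for all genes.

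After ischemia no member and no gene was called for KO against WT (0%), with 1146 genes (6.48%) at an unadjusted p under 0.05 and 18 called by DESeq2. Nfkbia differed by -0.31 (95% interval -0.74 to 0.11) and Tnfaip3 by -0.44 (-1.69 to 0.82). Nfkbiz, at 93.2, 105 and 49.1 CPM in WT and 32.8 to 70.6 CPM in KO mice, differed by -0.71 (-1.39 to -0.022), the 1 member with an unadjusted p under 0.05 (0.0439 by edgeR, FDR 0.715). DESeq2 called none of the members in either comparison.

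The interaction, which compares the size of the ischemia effect between genotypes, also gave no call among the members or over all genes (0%), with 765 genes (4.32%) at an unadjusted p under 0.05 and 11 genes, none of them members, called by DESeq2. No member had an unadjusted p under 0.05. For Nfkbia the ischemia effect in KO minus that in WT mice was 0.018 on the log2 scale (95% interval -0.59 to 0.62). The intervals were wider for Nfkbiz (-1.15 to 0.81), Tnfaip3 (-2.14 to 1.46) and Bcl3 (-2.98 to 2.15), so that for those genes even a sizeable difference in response between genotypes could not be resolved with these groups.

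**Figure D3:**
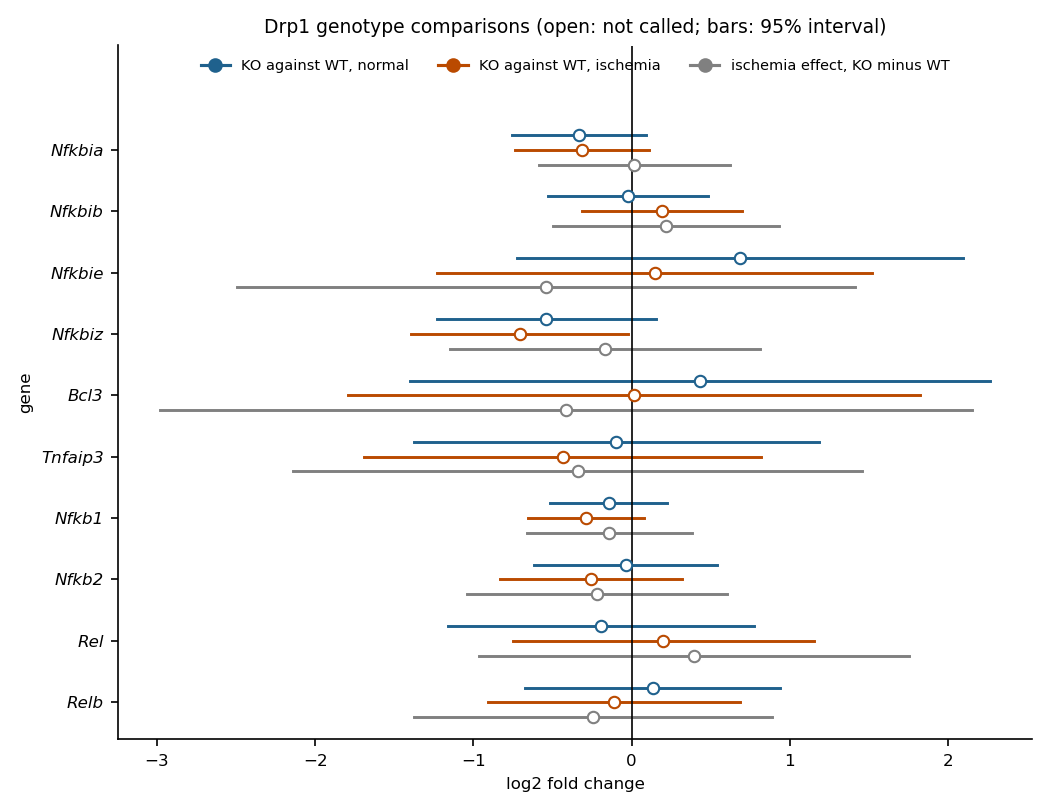
Log2 differences of each member for KO against WT under normal conditions, KO against WT after ischemia, and the ischemia effect in KO minus that in WT mice. Points are edgeR estimates and bars 95% intervals, and open points were not called. The interval of Nfkbiz after ischemia, -1.39 to -0.022, is the 1 interval that does not cross 0.

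Levels of different genes were set side by side per length, as CPM per kb of exon in the GENCODE M21 gene models. The length joins all annotated exons of a gene, 12061 bases for Nfkb1 and 2169 for Nfkbib, and the order depends on it. In CPM Nfkb1 stood above Nfkbib (means of 61.1 and 20.7 in normal WT mice). Nfkbia was the highest member under normal conditions (74.4 in WT and 59.1 in KO mice, group means) and after ischemia (254 and 204). Rela followed at 34.9 and 30.05, then 51.2 and 45.6, and in no group did its mice overlap with those of Nfkbia. Nfkbib came next at 9.55 and 9.40, overlapping under normal conditions with Bcl3 but with no lower member.

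Bcl3, Nfkb2, Nfkb1 and Nfkbiz lay between 3.12 and 6.35 CPM per kb under normal conditions, and their mice overlapped, except that in KO mice Nfkbiz (up to 4.24) lay below Nfkb1 and Nfkb2. Relb at 2.89 and 3.17, Tnfaip3 at 1.48 and 1.39 and Nfkbie at 0.602 and 0.967 had lower means, and Rel was the lowest at 0.195 and 0.171. In both genotypes Relb overlapped Nfkbiz, Nfkbie overlapped Tnfaip3, and Bcl3 overlapped both Relb and Tnfaip3. In KO mice Tnfaip3 also overlapped Relb and Nfkbiz. After ischemia Tnfaip3 stood at 16.01 and 11.8 and Nfkbiz at 16.4 and 10.05 CPM per kb, level with Bcl3 (15.2 and 15.4) and Nfkbib (12.0 and 13.7) within the spread of the mice. Rel, although called higher, kept the lowest mean at 0.563 and 0.647, with mice that overlapped those of Nfkbie in both ischemic groups and in normal WT mice.

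**Figure D4:**
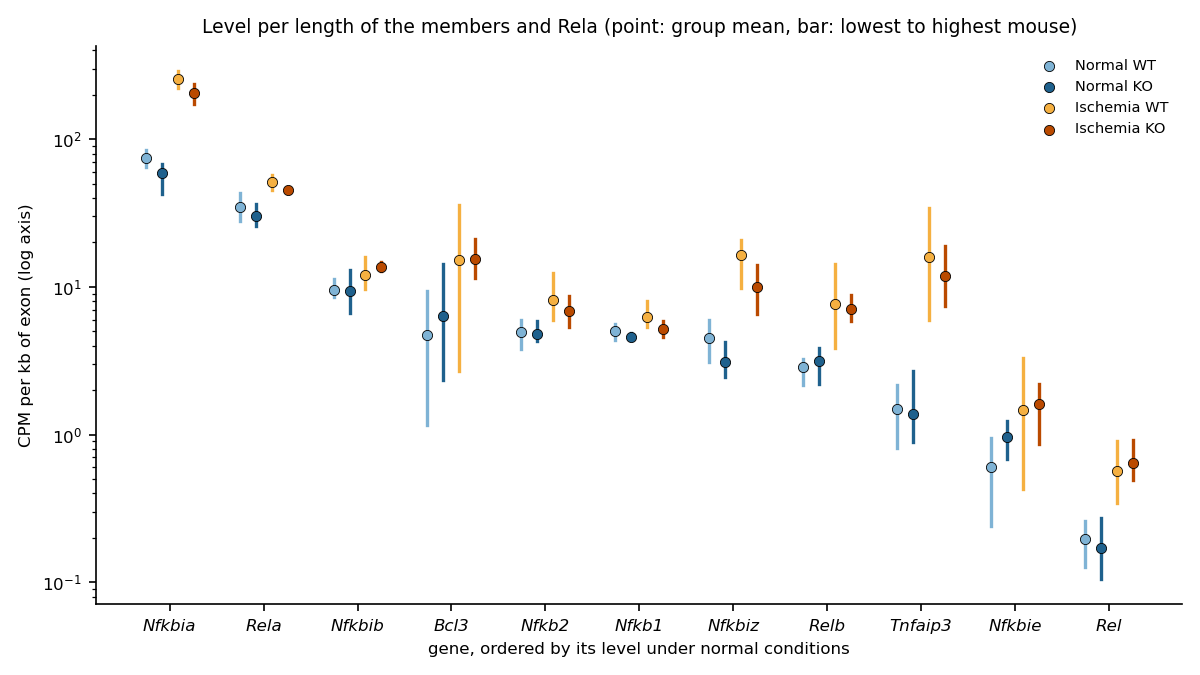
Level per length of the 10 members and Rela in CPM per kb of exon on a log axis, ordered by the level under normal conditions. Points are group means and bars run from the lowest to the highest mouse. Nfkbia leads in each group, up to 254 in ischemic WT mice, and Rel has the lowest mean in each group.

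The other genes of the pathway were read from 5 lists by role. Of 20 receptors and ligands 13 were tested and none was called by edgeR (median log2 fold change 0.33), with 2 called by DESeq2. Tnf, Lta and Ltb were listed at 0 in all mice, and so was their neighbour Nfkbil1 among the other inhibitors. The broadly expressed Bag6, Prrc2a and Csnk2b of the same stretch of chromosome 17, looked up after these values were seen, were also at 0 in all 14 mice, so that these zeros are no measure of cytokine expression. Of 28 adaptors and kinases 1 was called, Birc3, a ubiquitin ligase of the receptor complexes that is itself a known NF-kB target (log2 1.64, SE 0.320, FDR 0.0299), and the list's median was 0.19. Birc3 averaged 18.6 ± 9.52 CPM (SD, n = 3) in normal WT, 19.0 ± 3.24 CPM (n = 4) in normal KO, 62.0 ± 49.4 CPM (n = 3) in ischemic WT and 55.5 ± 12.5 CPM (n = 4) in ischemic KO mice. Its call was kept in 4 of the 14 fits that left out a mouse (without normal WT mouse 1, normal KO mouse 1 or ischemic WT mouse 1 or 3). The list held 5 calls without normal WT mouse 1, 3 without normal KO mouse 1 and 0 in each fit that lost Birc3.

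The IkB kinase subunits showed no call. Chuk (log2 -0.14, FDR 0.504), Ikbkb (0.17, FDR 0.451) and the regulatory subunit Ikbkg (-0.26, FDR 0.289) ranged over 23.8 to 34.2, 42.5 to 69.0 and 27.2 to 45.4 CPM in the 14 mice. Of 19 other inhibitors tested, Zc3h12a, an RNase that degrades inflammatory mRNAs, rose by 2.13 on the log2 scale (SE 0.286, FDR 0.00525), and Zfp36, which also destabilises cytokine mRNAs, by 1.18 (SE 0.229, FDR 0.0299), with a list median of 0.19. Zc3h12a kept its call with any 1 mouse left out, and Zfp36 in 4 of 14 such fits (without normal WT mouse 1, normal KO mouse 1 or 2 or ischemic WT mouse 1). Nfkbid, another nuclear IkB gene, had a log2 fold change of 1.43 (FDR 0.165) at 0.169 to 3.13 CPM, and Tnip1, the partner of Tnfaip3, had 0.44 (FDR 0.396).

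Of 36 target genes of NF-kB 34 were tested, 9 rose and none fell, with a median log2 fold change of 1.25, beside the 0.616% called higher over all genes. With a mouse left out 7 to 13 were called, and 18 by DESeq2, but 4 when only genes with at least 10 counts in every mouse were tested. Icam1, the endothelial adhesion molecule, averaged 22.6 ± 9.04 CPM in normal WT (n = 3), 40.5 ± 21.8 CPM in normal KO (n = 4), 559 ± 460 CPM in ischemic WT (n = 3) and 553 ± 159 CPM in ischemic KO mice (n = 4). Icam1 was called over both genotypes (log2 4.20, SE 0.400, an 18.4-fold rise, FDR 0.000613), and also in WT (4.62, FDR 0.0272) and KO mice (3.77, FDR 0.00839). Sele, which encodes E-selectin, went from group means of 2.33 and 1.83 CPM to 159 and 102 CPM (log2 5.94, SE 0.712, FDR 0.00371), with as few as 1 count in a normal mouse, and was called in KO mice too (5.79, FDR 0.0215).

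Cxcl2, a neutrophil chemokine, was called (FDR 0.00525) and averaged 0.0629 and 0.425 CPM in normal WT and KO mice, with 0 counts in some of them, against 27.7 and 23.3 CPM after ischemia. Over both genotypes Icam1, Sele and Cxcl2 kept their calls with any 1 mouse left out. The WT call of Icam1 was lost without any of the normal WT mice, normal KO mouse 2 or 3, ischemic WT mouse 2 or ischemic KO mouse 1, 2 or 4 (FDR 0.0507 to 0.338). In KO mice Icam1 lost its call without normal KO mouse 2 or 3 (FDR 0.0567 to 0.0741), and Sele without these or ischemic KO mouse 2 or 4 (FDR 0.0584 to 0.0955). Csf3 and Il6 had no count in normal WT mice, and the list's median stayed at 1.25 with these genes set to the bound that 3 counts per library allow.

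Of 22 immediate early genes, which are induced by many signals besides NF-kB, 7 rose and none fell (median 0.61). Maff, a small Maf protein, rose by 2.28 on the log2 scale (SE 0.308, FDR 0.00525), Junb by 1.81 (SE 0.325, FDR 0.0221) and Fosl2 by 1.47 (SE 0.272, FDR 0.0260). Over both genotypes Maff kept its call with any 1 mouse left out, Junb lost it without ischemic WT mouse 2 or 3, and Fosl2 kept it without normal WT mouse 1, normal KO mouse 1, ischemic WT mouse 1 or 3 or ischemic KO mouse 1 or 4. Without both neutrophil-rich mice Junb, Fosl2, Birc3 and Zfp36 were no longer called (FDR 0.0891 to 0.116), whereas Maff, Zc3h12a, Icam1, Sele and Cxcl2 were. The number called in this list was between 1 and 6 with a mouse left out, and was 1 without ischemic WT mouse 2. In KO mice alone Atf3 (log2 2.21, FDR 0.0132), Nr4a1 (2.44, FDR 0.0191) and Maff (2.63, FDR 0.0215) were called in this list and Zc3h12a (2.03, FDR 0.0414) among the other inhibitors. Each of these KO calls was lost without normal KO mouse 2 or 3 or ischemic KO mouse 2. Those of Nr4a1 and Maff were also lost without normal KO mouse 1, that of Maff without ischemic KO mouse 4, and that of Zc3h12a without normal WT mouse 3 or any normal or ischemic KO mouse, with FDRs of 0.0528 to 0.188 in all. In WT mice Icam1 was the 1 gene called over the 5 lists.

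**Figure D5:**
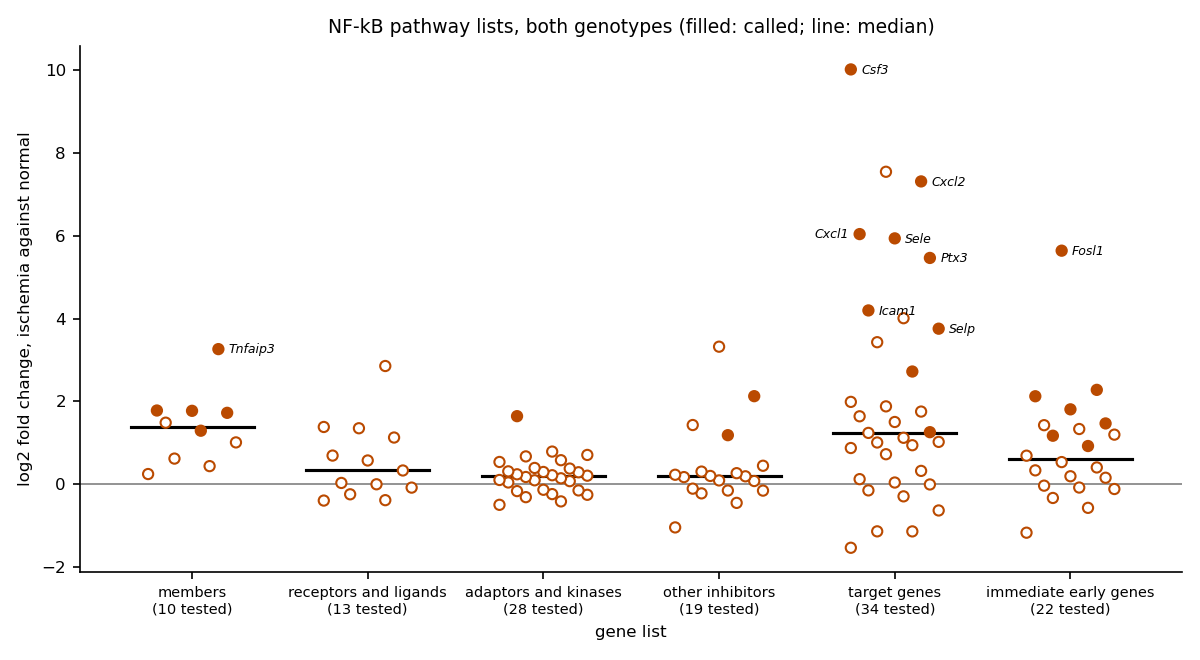
Log2 fold change, ischemia against normal over both genotypes, of the 10 members and of the tested genes of 5 pathway lists. Points are genes, filled where called, and lines are list medians, which run from 0.19 for the adaptors and kinases to 1.39 for the members. Csf3, Il6 and Fosl1 had no count in 1 normal group, so their fitted values are no measure of size.

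The profile of Nfkbia over the 14 mice was compared with that of each other gene by the root mean square (RMS) difference of standardized log2 CPM, over 17509 genes outside the members and lists. The most alike were Gpr3 (RMS 0.290), a G protein-coupled receptor, Irf2bp2 (0.325), a transcriptional corepressor, Gm39286 (0.327), Pde4b (0.334), a cAMP phosphodiesterase, and Bag3 (0.340), a co-chaperone. Of the members, Nfkbiz at 0.362 and Tnfaip3 at 0.388 came closest to Nfkbia, and Bcl3 at 0.974 and Nfkbie at 1.12 were farthest.

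These genes were chosen for their likeness to Nfkbia over the same mice. Higher levels after ischemia therefore follow from the choice, and the values below describe size only. Irf2bp2 rose by 1.12 on the log2 scale (FDR 0.00525), Pde4b by 1.92 (FDR 0.00319) and Bag3 by 1.10 (FDR 0.0108) over both genotypes. Gpr3 had 0 or 1 count in each normal mouse and 11 to 58 counts in the ischemic mice. Gm39286 had 0 to 6 counts in the normal mice, 67 to 121 in ischemic WT and 23 to 40 in ischemic KO mice.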

How the data were processed

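Total RNA of the SMA of 14 mice in 4 groups was sequenced by the authors, and the deposited table holds whole-number read counts per gene symbol for each mouse. The submitters' processing notes name HISAT2 2.0.4 and mm10. The counting program and its use of strand are not given in the sources used here, and without strand, reads of overlapping genes cannot be told apart. The study's methods name a random variance model F-test, which is not made for counts, and edgeR's quasi-likelihood test was used in its place.

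Each column was matched to a mouse by its name, with 0 columns unmatched. Genes were kept by filterByExpr (17693 of 46095 symbols, of which 27727 had a count), scaled by TMM and fitted as 1 model of 4 groups by edgeR, version 4.0.16, under R, version 4.3.3, with limma at version 3.58.1, with 10 residual degrees of freedom and a common biological coefficient of variation of 0.522. Ischemia was compared with normal conditions over both genotypes and in each, KO with WT in each condition, and the interaction was tested. Calls took an FDR below 0.05 over all genes and a fold change above 1.5, and intervals are at 95%. Same-group libraries differed far beyond counting noise (chi-square per degree of freedom of at least 59.1 in 18 pairs), so none was counted as a repeat. A count of 0 allows up to 3 counts per library, which covers counting error only. Alternatives were DESeq2 1.42.0, other scalings and filters, no fold limit, the replicate number as a block, only the groups compared, and each mouse left out.

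The members and lists were chosen with earlier results of these data known. Named are the 10 members, up to 3 called genes a direction of each list by smallest p, Rela, Nfkbid, Tnip1, Chuk, Ikbkb and Ikbkg whatever their values, Dnm1l, and the 5 genes most like Nfkbia. The mice are separate individuals in the study's methods. Columns and groups were taken from the labels alone.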

Additional observations from a re-analysis of the deposited data

Results flagged for a closer look

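Tnfaip3 in normal KO mouse 4 stood at 19.4 CPM, against 6.46 to 7.19 CPM in the other normal KO mice. Its gap to the nearest mouse was 0.943 of the group's range, above Dixon's 95% critical value for 4 samples. It was 1 of 20 sets of 4 mice examined, and chance alone marks about 1 set in 20.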

How the results depend on the processing

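For ischemia over both genotypes, 5 members were called under DESeq2, other scalings, other filters and no fold limit, 3 to 5 with a mouse left out, and 3 (Nfkbia, Nfkbiz and Tnfaip3) without the 2 ischemic mice over 10 CPM of neutrophil markers, an alternative chosen after seeing the data. In WT mice the 1 call became 3 by DESeq2, 0 with only the groups compared, 0 to 1 with a mouse left out and 0 without the neutrophil-rich mice. In KO mice the 3 calls became 5 by DESeq2, 5 with only the groups compared, 1 to 4 with a mouse left out, and 2 under either other scaling (Tnfaip3 lost at FDR 0.0551 and 0.0540) or without the neutrophil-rich mice (Nfkbiz lost at FDR 0.0845). No member was called for genotype or interaction under any setting run. Over all genes the calls for ischemia were 164, with 870 by DESeq2 and 60 to 361 with a mouse left out. In WT mice they were 2 (108 by DESeq2, 0 to 3 with a mouse left out) and in KO mice 52 (606, and 5 to 174). For genotype under normal conditions 0 to 29 genes were called with a mouse left out. The cause of these shifts was not tested. Other scalings moved the median of all genes by at most 0.018 on the log2 scale.

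The replicate numbers mark different mice, and no label says that a number stands for a shared litter, batch or day, so they were not taken as pairs. Over 19 pairs with the same number the correlation of deviations from the group means ran from -0.146 to 0.316 (median 0.120, 11 over 0.1), against a median of -0.045 and 9 over 0.1 among 54 pairs with different numbers. With the replicate number as a block 4 members were called over both genotypes (Relb lost at FDR 0.0637), 0 in WT and 2 in KO mice, and 156, 0 and 48 genes in all. The block turned the sign of Relb for KO against WT after ischemia (0.027) and of Bcl3 for the interaction (0.32), neither of them called.

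Other signs that turned were of values that no fit called. Without the neutrophil-rich mice the log2 fold change of Nfkbie in WT mice was -0.18. For KO against WT after ischemia it was then 0.49 for Tnfaip3, 0.084 for Nfkb2 and 0.60 for Relb. For the interaction it was 0.75 for Nfkbie, 0.085 for Nfkbiz, 0.59 for Tnfaip3, 1.09 for Bcl3, 0.057 for Nfkb1, 0.13 for Nfkb2 and 0.47 for Relb. With a mouse left out Nfkbie ran from -0.18 to 1.75 in WT mice. For KO against WT under normal conditions the ranges were -0.22 to 0.11 for Nfkbib, -0.63 to 0.29 for Tnfaip3, -0.35 to 1.45 for Bcl3, -0.20 to 0.12 for Nfkb2, -0.50 to 0.065 for Rel and -0.040 to 0.27 for Relb. After ischemia they were -0.29 to 1.63 for Nfkbie, -0.83 to 0.81 for Tnfaip3, -0.48 to 1.73 for Bcl3, -0.44 to 0.22 for Nfkb2, -0.057 to 0.78 for Rel and -0.43 to 0.72 for Relb. For the interaction they were -0.11 to 0.18 for Nfkbia, -0.98 to 0.94 for Nfkbie, -0.44 to 0.090 for Nfkbiz, -0.74 to 0.91 for Tnfaip3, -1.39 to 1.29 for Bcl3, -0.24 to 0.12 for Nfkb1, -0.41 to 0.27 for Nfkb2 and -0.56 to 0.59 for Relb. In the ischemia comparisons every other member kept its positive sign under all settings run. Rel and Nfkbie rest on as few as 25 counts in a mouse, which limits their precision.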
